A study of Mus musculus with 10 samples.

Results

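The 9 genes described here are those of the EGF receptor family and its ligands that were picked by symbol from a deposited expression table of 36172 genes. They comprise 3 receptors, Egfr, Erbb2 and Erbb3, and 6 ligands, Areg, Ereg, Btc, Hbegf, Tgfa and Nrg1. All 9 had values and all 9 were among the 14253 genes tested. The data are RNA sequencing of 10 libraries from 5 kinds of cells grown out of the left atrial appendage, which is a small muscular pouch on the heart's left atrium, of C57BL/6 mice aged 8 to 12 weeks, with 2 libraries for each kind. B cells were primary cells from tissue digested weakly, with 0.05% trypsin, and were sorted as c-kit+/CD45+. C1, C2 and C3 cells were later cultures of B-type cells, taken at passage 6, 8 and 10. C1 cells were c-kit+/CD45-, whereas C2 and C3 cells were c-kit-/CD45-. A cells were primary cells from tissue digested strongly, with 0.25% trypsin, and were sorted as c-kit+/CD45-. Collagenase D at 0.1% and 3 digestion steps of 5 min were common to the digestions of both A and B. Digestion and sort gate differ together between B and A, so their parts cannot be told apart. The same holds for passage and CD45 label between B and C1, and for passage and c-kit label between C1 and C2. Between B and C3, passage and both labels differ together. The labels do not say whether the 2 libraries of a kind came from separate animals or cultures, so any p-value here rests on the spread between these libraries alone, which may be technical.

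The receptors of this family are tyrosine kinases that work in pairs on the cell surface. EGFR binds a set of related ligands. ERBB2 has no known ligand of its own and acts as the partner of the others, and ERBB3 has a weak kinase, binds neuregulins and signals mainly through its partner. The ligands are made as proteins anchored in the membrane and are released by proteases of the ADAM family. Active receptors drive the RAS and MAP kinase cascade, which induces genes that in turn restrain it. In the heart, neuregulin from the endothelium acting on cardiomyocytes, and HB-EGF acting on EGFR during valve development, are textbook examples.

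All 6 ligands carry an EGF-like fold, which is held together by cysteines at fixed spacing. The coding stretch of that fold is shown for 5 of the 6 ligands because it is the feature that they share. It was read from the GENCODE M21 transcripts (GRCm38) from the first to the last cysteine codon, and the 6 cysteine codons of each are in capitals.
Areg: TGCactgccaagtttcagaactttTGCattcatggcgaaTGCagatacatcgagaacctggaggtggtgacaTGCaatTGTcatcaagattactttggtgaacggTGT
Ereg: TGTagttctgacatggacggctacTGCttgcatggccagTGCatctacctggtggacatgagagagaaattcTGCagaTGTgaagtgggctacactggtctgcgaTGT
Btc: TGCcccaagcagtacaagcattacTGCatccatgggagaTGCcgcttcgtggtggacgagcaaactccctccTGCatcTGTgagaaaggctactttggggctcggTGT
Tgfa: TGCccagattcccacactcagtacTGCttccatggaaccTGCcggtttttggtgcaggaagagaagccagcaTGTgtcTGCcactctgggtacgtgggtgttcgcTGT
Nrg1: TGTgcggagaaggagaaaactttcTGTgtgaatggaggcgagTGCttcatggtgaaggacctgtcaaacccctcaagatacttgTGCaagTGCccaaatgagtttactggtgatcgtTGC
The stretch is 36 codons long in Areg, Ereg, Btc and Tgfa, with the same cysteine spacing in all 4. In Nrg1 it is 40 codons long, because the gaps that follow the second and the third cysteine hold more codons. Among the 4 of equal length, identity was between 45.4% (Ereg with Tgfa) and 62% (Btc with Tgfa) of 108 bases. The genes for epiregulin, amphiregulin and betacellulin lie beside each other on chromosome 5 in GRCm38, with 45.95 kb between Ereg (91074622 to 91093646) and Areg (91139599 to 91148432), and 208.8 kb between Areg and Btc (91357261 to 91402994, minus strand). Egfr lies on chromosome 11 at 16752203 to 16918158 and Erbb2 on the same chromosome at 98412470 to 98437716. Erbb3 lies on chromosome 10 (128567523 to 128589652, minus strand), Tgfa on chromosome 6 (86195223 to 86275719) and Nrg1 on chromosome 8 (31814551 to 32884029, minus strand).

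The deposited values are log2 normalized reads from which the median of each gene over the 10 libraries was taken away, so that 0 marks the gene's own median and values of different genes do not share a zero. For 4 members, Erbb3, Areg, Tgfa and Nrg1, the level itself could be recovered. For Egfr, Erbb2, Ereg, Btc and Hbegf it is unknown, and only differences between libraries are given. The depth relative to the other libraries, found from the spacing of low values, was 0.436 and 0.552 for the B libraries, 0.992 and 1.498 for C1, 0.490 and 0.966 for C2, 3.86 and 5.03 for C3, and 0.595 and 0.522 for A. The limit of 3 reads was 5.43 to 6.88 normalized reads in B, 2.00 to 3.02 in C1, 3.11 to 6.12 in C2 and 5.04 to 5.75 in A, and lay at the floor of 1 in C3. Such limits cover counting error only. Low fractional values fell on steps of 1/51 read in the 8 libraries of B, C1, C2 and C3 (52.3% to 62.2% of them) and of 1/60 read in both A libraries (42.7% and 45.3%). The values of the A libraries thus carry another step size, for which the sources used here give no reason, and this cannot be told apart from cell type in any comparison with A.

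The sort labels were checked against their transcripts. Ptprc, which encodes CD45, stood at 2823 and 2723 normalized reads in B, at 1.01 and at the floor in C1, at the floor in C2 and C3, and at 6.72 and 82.1 in A. Kit, which encodes c-kit, stood at 22.9 and 12.7 in B cells, 35.3 and 66.4 in C1, at the floor and 3.11 in C2, at the floor in C3, and at 3.36 and 72.3 in A. A replicate 1, labelled c-kit+, thus held 2 reads of Kit, under its limit, and A replicate 2, labelled CD45-, held 42.9 reads of Ptprc. The mean of 10 leukocyte and macrophage markers, on the median-centred log2 scale, was -0.02 in A replicate 1 and 3.94 in A replicate 2. Over the 9 members the root mean square gap between the 2 libraries was 1.79 in A and between 0.34 and 0.68 in the other 4 kinds. Member differences that involve A are therefore given with and without each of its libraries where that changes a call or a sign.

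No kind of cell was the highest or the lowest for all members. B was lowest for 5 of the 9, Egfr, Erbb2, Nrg1, Btc and Tgfa, and highest for Erbb3. C3 was highest for Areg, Hbegf and Tgfa, C2 for Egfr and Nrg1, C1 for Btc, and A for Erbb2 and Ereg. C1 was lowest for Erbb3, Areg and Hbegf, and C2 for Ereg. Neighbouring kinds in these orders often overlapped between libraries. For Hbegf none did, and for Areg and Btc 3 neighbouring pairs did.

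**Figure D1:**
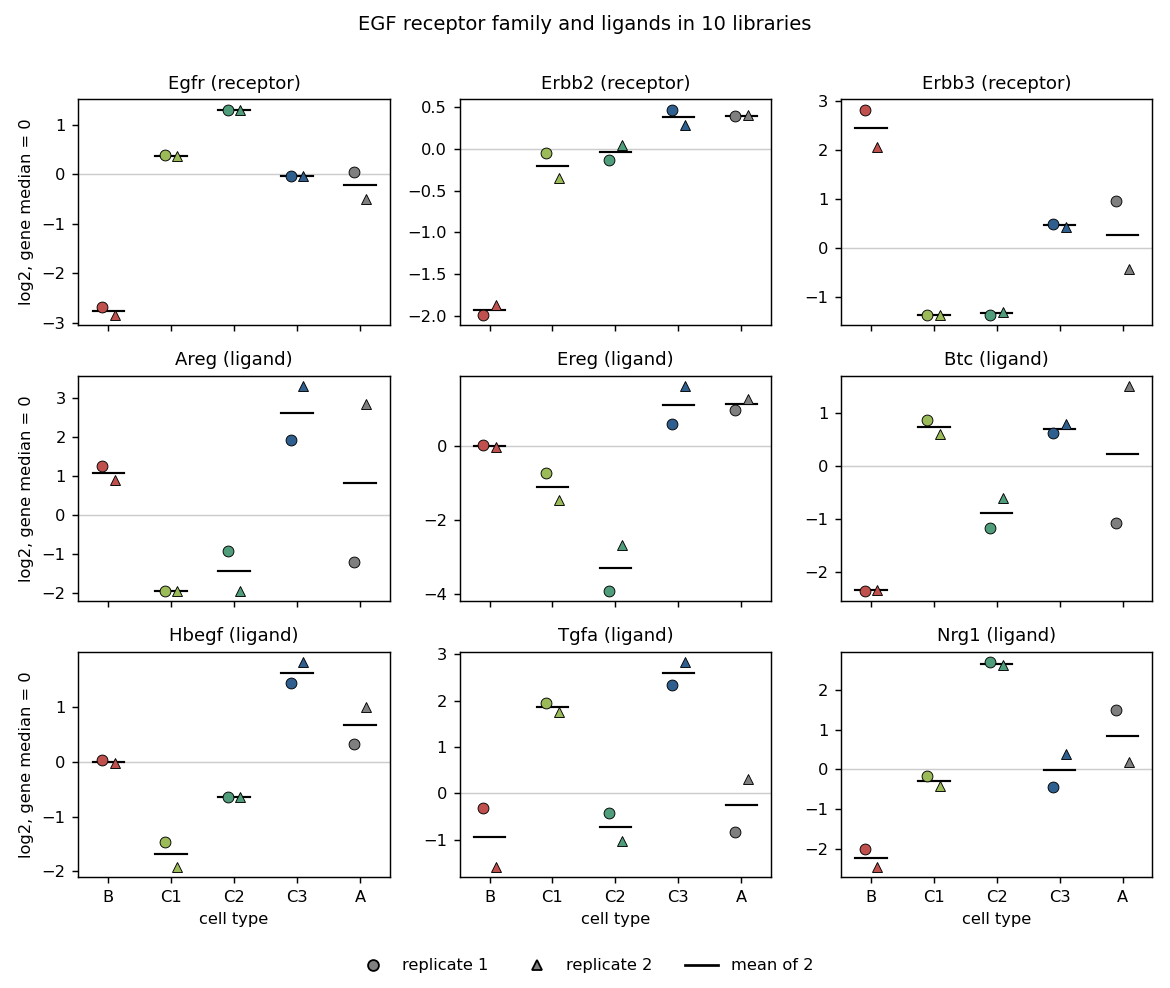
Median-centred log2 value (y axis, a separate scale for each gene) of the 9 members in each of the 10 libraries, by cell type (x axis); circles are replicate 1, triangles replicate 2 and bars the mean of 2. Egfr, Erbb2, Btc and Nrg1 have both B libraries at the bottom, and in A the replicates of Areg lie 4.04 apart.

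Egfr, which encodes the receptor shared by EGF, TGF-alpha and amphiregulin, was lowest in B and highest in C2. On the median-centred log2 scale it stood at -2.68 and -2.84 in B cells, 0.38 and 0.37 in C1, 1.30 and 1.29 in C2, -0.05 and -0.05 in C3, and 0.05 and -0.50 in A. The 2 libraries of each of the passaged kinds nearly coincided, and C3 and A overlapped while no other neighbours did. Egfr was 8.78-fold higher in C1 than in B, a log2 difference of 3.13 ± 0.19 (SE, n = 2 each) with an adjusted p of 3.79e-05 in limma. It was 2.54-fold lower in C3 than in C2 (log2 difference -1.34 ± 0.19, limma adjusted p = 0.00166) and 5.80-fold lower in B than in A (log2 difference -2.54 ± 0.19, limma adjusted p = 0.000161). For C2 minus C1 the difference of 0.92 ± 0.19 had a limma adjusted p of 0.0101 but lay below the log2 difference of 1 that a call requires. Under quantile normalization it was 1.58 and was called (limma adjusted p = 0.0036).

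Erbb2, the partner receptor, varied least of the 9 between libraries, over a range of 2.46 on the log2 scale. Its values were -1.99 and -1.88 in B cells, -0.05 and -0.35 in C1, -0.13 and 0.05 in C2, 0.47 and 0.29 in C3, and 0.40 and 0.41 in A. B stood apart below the other 4 kinds, among which A overlapped with C3, and C1 with C2. Erbb2 was 3.32-fold higher in C1 than in B (log2 difference 1.73 ± 0.16, limma adjusted p = 0.000193) and 5.04-fold lower in B than in A (log2 difference -2.33 ± 0.16, limma adjusted p = 0.000114). Between the passaged kinds it was not called, with 0.16 ± 0.16 for C2 minus C1 and 0.42 ± 0.16 for C3 minus C2.

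Erbb3, the neuregulin receptor, ran the other way, being highest in B, and it was measured from few reads. It had 18.4 and 10.9 normalized reads in B, which are 8 and 6 reads. It was at the floor in both C1 libraries, at the floor and at 1 read in C2, and at 3.63 and 3.47 normalized reads in C3, where the depth turned these into 14 and 17.5 reads. A had 5.04 and 1.92 normalized reads, or 3 reads and 1 read. Only B and C3 thus lay above the limit of 3 reads. Erbb3 passed the filter of 10 normalized reads in 2 libraries only through B, where it is high. Its calls against B are therefore a description. The counts of called members below include Erbb3 and draw no support from it. Against the limits, Erbb3 was at least 4.83-fold lower in C1 than in B and at least 2.54-fold higher in B than in A. limma called both differences (-3.82 ± 0.44, adjusted p = 0.000535, and 2.18 ± 0.44, adjusted p = 0.00773). The difference between B and A was not called without B replicate 1 (1.81, limma adjusted p = 0.0527), under quantile normalization (1.25) or with only these 4 libraries in the fit. C3 minus C2 was called at 1.80 ± 0.44 (limma adjusted p = 0.0152), but the mean of 3.55 in C3 is under the limit of the shallower C2 library, so no fold is given. That call was lost without any single library of C2 or C3, at limma adjusted p of 0.0598 to 0.0694. C3 stood below B with a ratio of means of 0.243 (log2 difference -1.99 ± 0.44, limma adjusted p = 0.00697), which quantile normalization took to -1.02 and an adjusted p of 0.11.

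Among the ligands encoded on chromosome 5, Areg encodes amphiregulin, which binds EGFR. It had 9.18 and 7.24 normalized reads in B cells, 4 reads in each library. It was at the floor in both C1 libraries, at 2.04 and at the floor in C2, and at 14.7 and 38.4 in C3. In A it had 1.68 and 27.7 normalized reads, or 1 read against 14.4. C3 was above every library of B, C1 and C2, while the A libraries lay 4.04 apart on the log2 scale, where all 10 libraries spanned 5.26. Areg passed the filter through both C3 libraries and A replicate 2, so its difference between C3 and C2 is likewise a description. It was at least 4.34-fold higher in C3 than in C2, which limma called (4.06 ± 1.19, adjusted p = 0.0297). The call was lost without any of the 8 libraries of B, C1, C2 and C3, at limma adjusted p of 0.0502 to 0.148. C1 was at least 2.72-fold below B, but the log2 difference of -3.03 ± 1.19 was not called (limma adjusted p = 0.0697). It was called with only the libraries of C1 and B in the fit (limma adjusted p = 0.00132) and without either A library (limma adjusted p = 0.00336), since the gap between the A libraries enters the spread of the fit. Without either A library, C3 minus B was likewise called (1.54, limma adjusted p = 0.0379). For B minus A the sign depended on the library of A, with -1.76 without A replicate 1 and 2.28 without A replicate 2, which was called (limma adjusted p = 0.03).

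Ereg encodes epiregulin, which binds EGFR and ERBB4. Its log2 values were 0.03 and -0.03 in B cells, -0.73 and -1.48 in C1, -3.93 and -2.68 in C2, 0.60 and 1.63 in C3, and 0.98 and 1.29 in A. It fell to its lowest values in both C2 libraries, and C3 reached the range of A. Ereg was 21.4-fold higher in C3 than in C2 (log2 difference 4.42 ± 0.50, limma adjusted p = 0.000744), the largest difference of any member between consecutive passages. In C2 it was 4.61-fold lower than in C1 (-2.20 ± 0.50, limma adjusted p = 0.0149), a call that was lost without C1 replicate 1 or C2 replicate 1 (limma adjusted p of 0.0847 and 0.0754) or with only the 4 libraries of C2 and C1 (0.0714). C1 minus B and C3 minus B were -1.10 ± 0.50 and 1.11 ± 0.50 and were not called, though C1 minus B was with only these 4 libraries in the fit (limma adjusted p = 0.0457).

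Btc encodes betacellulin, a ligand of EGFR and ERBB4. Its log2 values were -2.35 and -2.33 in B cells, 0.87 and 0.61 in C1, -1.16 and -0.61 in C2, 0.62 and 0.78 in C3, and -1.07 and 1.51 in A. The B libraries lay together below all others, C1 overlapped with C3, and the A libraries lay 2.58 apart on either side of C1 and C3. Btc was 8.47-fold higher in C1 than in B (3.08 ± 0.72, limma adjusted p = 0.0108), which was not called without B replicate 1, B replicate 2 or C1 replicate 1 (limma adjusted p of 0.0517 to 0.0557). Its differences of -1.63 ± 0.72 for C2 minus C1 and 1.59 ± 0.72 for C3 minus C2 were not called (limma adjusted p of 0.124 and 0.117). Without either A library both were called, at limma adjusted p of 0.00211 and 0.00162, as they were with only the compared libraries in the fit (0.0302 and 0.0226).

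Hbegf encodes heparin-binding EGF-like growth factor. It had log2 values of 0.03 and -0.03 in B cells, -1.46 and -1.92 in C1, -0.65 and -0.65 in C2, 1.43 and 1.81 in C3, and 0.32 and 1.00 in A. All 5 kinds were separate from their neighbours. Hbegf fell 3.22-fold in C1 relative to B (-1.69 ± 0.27, limma adjusted p = 0.00205). It was 2.05-fold higher in C2 than in C1 (1.04 ± 0.27, limma adjusted p = 0.0237) and 4.81-fold higher in C3 than in C2 (2.27 ± 0.27, limma adjusted p = 0.000895). The step from C1 to C2 was not called without C1 replicate 2 (0.81) or without either C2 library (limma adjusted p of 0.0856 and 0.0947), nor under quantile normalization (0.66).

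Tgfa encodes TGF-alpha, a ligand of EGFR. Its level alternated over B, C1, C2 and C3. It had 48.2 and 19.9 normalized reads in B cells, 232 and 203 in C1, 44.9 and 29.6 in C2, 305 and 426 in C3, and 33.6 and 74.7 in A. C1 and C3 were high, B, C2 and A were low, and the low kinds overlapped with each other. It was 7.004-fold higher in C1 than in B (2.81 ± 0.52, limma adjusted p = 0.004), 5.95-fold lower in C2 than in C1 (-2.57 ± 0.52, limma adjusted p = 0.00978) and 9.90-fold higher in C3 than in C2 (3.31 ± 0.52, limma adjusted p = 0.00259). The fall in C2 was not called without C1 replicate 1 or C2 replicate 2, at limma adjusted p of 0.0540 and 0.0562.

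Nrg1 encodes neuregulin 1, a ligand of ERBB3 and ERBB4. It had 24.9 and 18.1 normalized reads in B cells, 88.5 and 74.6 in C1, 646 and 613 in C2, 73.7 and 131 in C3, and 281 and 112 in A. C2 stood above every other library and B below every other, while C3 overlapped with C1 and with A. Nrg1 was 7.74-fold higher in C2 than in C1 (2.95 ± 0.46, limma adjusted p = 0.00363) and 6.405-fold lower in C3 than in C2 (-2.68 ± 0.46, limma adjusted p = 0.0036). It was 3.83-fold higher in C1 than in B (1.94 ± 0.46, limma adjusted p = 0.0111), which was not called without B replicate 2 or C1 replicate 1 (limma adjusted p of 0.0677 and 0.0595). Levels of different genes can be set side by side only per length of exon. On that scale Nrg1 averaged 60.8 normalized reads per kb in C2, against 5.74 for Tgfa in the same cells. In C3 the order was turned round, with 56.4 for Tgfa, 21.9 for Areg and 9.88 for Nrg1. The length was that of all annotated exons of a gene together, 10351 bases for Nrg1 and 1215 for Areg. Before division by length Nrg1 averaged 102.3 normalized reads in C3 and Areg 26.55, so the order of these 2 genes depends on that length.

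**Figure D2:**
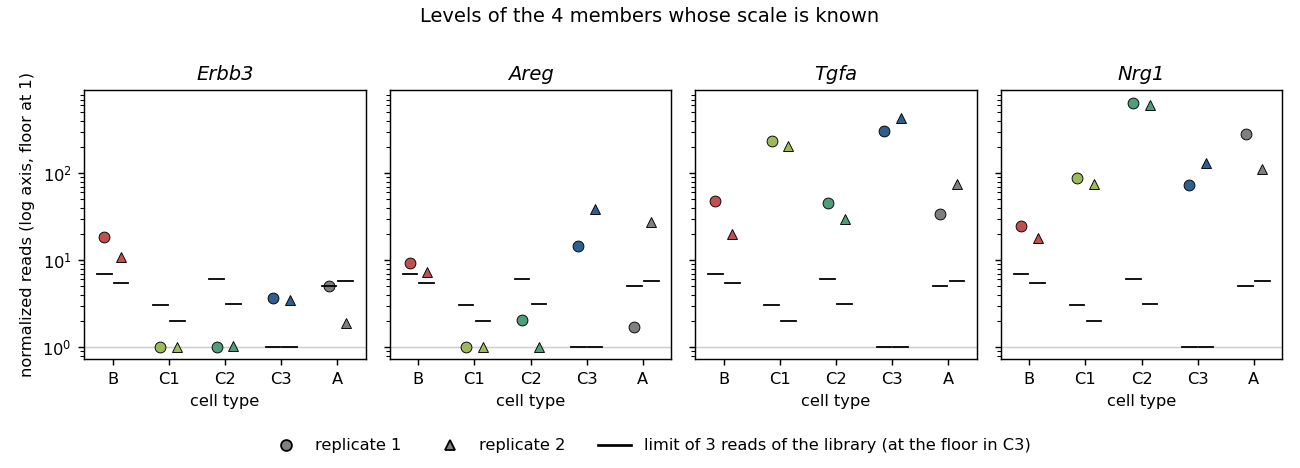
Normalized reads (log y axis, floor at 1) of the 4 members of known level in each library, by cell type (x axis), with the limit of 3 reads of each library as a short bar. Erbb3 and Areg lie at or under the limit in C1 and C2, Tgfa is at 305 and 426 in C3, and Nrg1 is at 646 and 613 in C2.

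The upstream sequences of Areg and Tgfa are shown, the pair of ligands of known level that were called higher in C3 than in C2. The pair did not move together throughout. In C1 vs B the difference was -3.03 for Areg, not called, and 2.81 for Tgfa, and r over the 10 libraries was 0.27. The sequences are the 250 bases before the RefSeq transcript start (GRCm38.p6), and capitals mark matches to 4 motifs searched on both strands. The motifs were AP-1 (TGANTCA), CRE (TGACGTCA), the GC box (GGGCGG) and the TATA box (TATAAA).
Areg chr5:91139349-91139598, + strand: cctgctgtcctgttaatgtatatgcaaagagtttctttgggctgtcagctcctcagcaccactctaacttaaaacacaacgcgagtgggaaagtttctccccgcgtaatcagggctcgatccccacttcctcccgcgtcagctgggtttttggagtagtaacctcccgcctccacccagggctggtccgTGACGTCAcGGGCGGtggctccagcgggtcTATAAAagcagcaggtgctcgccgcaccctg
Tgfa chr6:86194972-86195221, + strand: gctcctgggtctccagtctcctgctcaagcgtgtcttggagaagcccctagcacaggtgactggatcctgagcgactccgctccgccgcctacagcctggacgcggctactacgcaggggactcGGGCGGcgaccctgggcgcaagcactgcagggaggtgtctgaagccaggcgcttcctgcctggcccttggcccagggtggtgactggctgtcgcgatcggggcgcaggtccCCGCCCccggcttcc
The Areg window held 1 CRE, 1 GC box and 1 TATA box, and the Tgfa window held 2 GC boxes, without overlap between matches. Of 27025 promoter windows of this length, 1.62% held a CRE, 32.9% a GC box, 13% a TATA box and 6.87% an AP-1 motif. Windows for Egfr, Erbb2 and Btc were searched as well, and of these motifs Egfr held 1 GC box and the others held none. A match is a description of the letters and not evidence of a bound site.

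Between C1 and B, receptors and ligands did not move as a block. Egfr, Erbb2, Nrg1, Btc and Tgfa rose and Erbb3 and Hbegf fell, while Areg (-3.03) and Ereg (-1.10) were not called. The count of 7 called members of 9 includes Erbb3, whose call is a description. Over all tested genes 33.7% were called in limma in this comparison (12.6% higher and 21.1% lower). The median of the members was 1.73 on the log2 scale, against -0.07 over all tested genes. All 10 leukocyte and macrophage markers were called lower in C1, and the summed level of the 5 of known level was 8.05 and 6.67 normalized reads in C1 and 24196 and 23437 in B. In this and later sums each gene at the floor counts as 1, so a sum near the number of genes lies at the floor. Aif1 and Cd52 were at the floor in both C1 libraries. Of 8 endothelial markers tested 6 were called lower, with summed levels of 9.03 and 13.45 normalized reads in C1 against 359.7 and 330.6 in B over the 8 of known level, and Kdr, Tek, Tie1 and Emcn at the floor in C1. Of 6 Schwann cell and neural crest markers tested 4 were called lower alongside Erbb3, Sox10 (-4.92), S100b (-3.27), Cdh19 (-4.25) and Ngfr (-6.32). The 8 such markers of known level summed to 8 and 10.2 in C1 against 170.6 and 170.4 in B, and Sox10, Foxd3, Gfra3, Cdh19, Ngfr and Mag were at the floor in C1. Of the 10 fibroblast markers 1 was called higher and 3 lower, and likewise of the 10 epicardial and mesothelial markers. In a bulk library fewer cells of a kind and less RNA per cell cannot be told apart, and the part of these markers in the members' differences was not tested.

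Between C2 and C1, Nrg1 and Hbegf rose and Ereg and Tgfa fell, and the 3 receptors were not called. Under quantile normalization Egfr was called higher and Btc lower (-2.28, limma adjusted p = 0.039), and Hbegf was not called. The 4 called members of 9 stand against 20.4% of all tested genes (12.2% higher and 8.18% lower). The median of the members was 0.16, against 0 over all tested genes. Of 10 fibroblast markers 5 were called higher and 2 lower in C2, and of 10 epicardial and mesothelial markers 5 were called higher. Of 8 endothelial markers tested 3 were called higher, as was S100b among the 6 Schwann cell and neural crest markers tested. The 3 endothelial ones were Egfl7 (1.04), Kdr and Tek. Kdr and Tek averaged 5.65 and 3.61 normalized reads in C2, under the limit of 6.12 of the shallower C2 library. In C2 replicate 2 each had 5.18 normalized reads, above its limit of 3.11. Both genes were at the floor in C1. Pecam1, Cdh5, Tie1 and Emcn were at the floor in both C2 libraries. Of the 10 epithelial markers Esrp1 and Krt5 were listed at 0 in every library and 3 were tested, of which 2 were called higher in C2. These were Krt7 (5.00) and Krt14, which had only 2.04 and 2.59 normalized reads in C2, under the limits, and was at the floor in C1. Epcam, Cldn4, Cldn7, Ocln and Grhl2 averaged at or under the limit of the shallower C2 library, though Ocln had 4 reads in C2 replicate 2. No leukocyte marker was called. The part of these markers in the members' differences was not tested.

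Between C3 and C2, the ligands Areg, Ereg, Hbegf and Tgfa rose, and Egfr and Nrg1 fell. Erbb3 was called higher too, at levels for which no fold can be given. The 7 called members of 9 include Erbb3 and Areg, and 27.9% of all tested genes were called. Erbb3 passed the filter only through B, and Areg only through C3 and A replicate 2, so the call of Areg is a description. The median of the members was 1.80, against 0 over all tested genes. That median is the value of Erbb3 itself, so no support is drawn from it. Apart from Areg, the ligands Ereg, Hbegf and Tgfa were called higher and Nrg1 lower. Of all tested genes 11.6% were called higher and 16.2% lower (1656 and 2315 genes, or 2079 and 1865 under quantile normalization). All 10 fibroblast markers were called lower in C3, and 6 epicardial and mesothelial markers were called higher and 1 lower. Of 8 endothelial markers tested 1 was called higher and 2 lower, S100b was the only Schwann cell and neural crest marker called, lower in C3, and of 3 epithelial markers 1 was called each way. The mean of the fibroblast markers was -2.53 and -3.24 in C3 and 0.38 and 0.28 in C2, and the part of these markers in the members' differences was not tested.

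Between C3 and B, Egfr, Erbb2, Hbegf, Nrg1, Btc and Tgfa rose, Erbb3 fell, and Areg and Ereg were not called. The 7 called members of 9 include Erbb3, whose call is a description. Over all tested genes 41.4% were called (16.7% higher and 24.7% lower). The largest member difference was that of Tgfa, 11.6-fold higher in C3 (3.54 ± 0.52, limma adjusted p = 0.00108). Egfr was 6.56-fold, Erbb2 4.97-fold, Btc 8.25-fold, Nrg1 4.63-fold and Hbegf 3.07-fold higher. The median of the members was 2.21, against -0.06 over all tested genes. All 10 epicardial and mesothelial markers were called higher in C3, and all 10 leukocyte and macrophage markers were called lower, with summed levels of 6.07 and 5.18 normalized reads in C3 against 24196 and 23437 in B. Ptprc, Tyrobp, Aif1 and Cd52 were at the floor in both C3 libraries. Fibroblast markers were called lower for 7 of 10 and endothelial markers for 7 of 8 tested, with the endothelial set summing to 37.4 and 57.9 normalized reads in C3 against 359.7 and 330.6 in B. The Schwann cell and neural crest markers Sox10, S100b, Cdh19 and Ngfr, 4 of 6 tested, were called lower alongside Erbb3, with sums of 8.30 and 8.49 in C3 against 170.6 and 170.4 in B. Of 3 epithelial markers 1 was called higher. Their part in these results was not tested.

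Between B and A, Egfr, Erbb2, Nrg1 and Btc fell and Erbb3 rose. The 5 called members of 9 include Erbb3, whose call is a description. Over all tested genes 26.9% were called (14.5% higher and 12.4% lower, or 2066 and 1769 genes). Under quantile normalization 1484 genes were called higher and 1714 lower. Nrg1 showed the largest difference, 8.37-fold lower in B (-3.07 ± 0.46, limma adjusted p = 0.00224). Btc was 5.90-fold lower (-2.56 ± 0.72, limma adjusted p = 0.0285), a call that was lost without B replicate 1, B replicate 2 or either C3 library (limma adjusted p of 0.0503 to 0.108) and with only these 4 libraries in the fit (0.161). The sizes also depended on the library of A. Without A replicate 1 and without A replicate 2, in that order, Btc was at -3.85 and -1.27, Nrg1 at -2.40 and -3.73, and Erbb3 at 2.88 and 1.49. Ereg (-1.14 ± 0.50), Tgfa (-0.69 ± 0.52) and Areg (0.26 ± 1.19) were not called. Areg was called higher in B without A replicate 2, and Ereg lower with only these 4 libraries in the fit (limma adjusted p = 0.0368). The median of the members was -1.14, against 0.01 over all tested genes. Hbegf was not called at -0.66 ± 0.27, but without A replicate 1 it was at -1.001 with a limma adjusted p of 0.0223. All 10 leukocyte and macrophage markers were called higher in B, with summed levels of 24196 and 23437 normalized reads in B against 17.1 and 405 in A, and none was at the floor in both libraries of either kind. Of 10 epicardial and mesothelial markers 7 were called higher in B, and of 10 fibroblast markers 6 were called lower. Of 6 Schwann cell and neural crest markers tested, Sox10 (3.55), Mbp (4.66) and Ngfr (2.58) were called higher in B alongside Erbb3, and the 8 of known level summed to 170.6 and 170.4 normalized reads in B against 59.1 and 56.3 in A, with Mag at the floor in A. Of 8 endothelial markers tested, Kdr (6.72) and Vwf (3.05) were called higher, with sums of 359.7 and 330.6 in B against 125.4 and 213.1 in A. No epithelial marker was called. The part of these markers was not tested.

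C1 and A carry the same sort labels, c-kit+/CD45-. Between them, Tgfa was higher in C1, and Ereg and Hbegf were lower. Erbb3 was called lower too, at levels for which no fold can be given. The 4 called members of 9 stand against 26.6% of all tested genes (10.1% higher and 16.6% lower). Hbegf was 5.10-fold lower (-2.35 ± 0.27, limma adjusted p = 0.000884), Ereg 4.71-fold lower (-2.24 ± 0.50, limma adjusted p = 0.0111) and Tgfa 4.33-fold higher (2.11 ± 0.52, limma adjusted p = 0.0162). Erbb3 was called at -1.64 ± 0.44, but neither kind exceeded its limit of 3 reads, so no fold is given. Egfr (0.60 ± 0.19) and Erbb2 (-0.60 ± 0.16) differed by less than a log2 difference of 1. Only the call of Hbegf held without each library in turn. Tgfa and Erbb3 were not called without A replicate 1, C1 replicate 1 or C1 replicate 2, and Ereg was not called without C1 replicate 2 (limma adjusted p = 0.0692). With only these 4 libraries in the fit, Hbegf and Ereg were called. Without A replicate 1, Areg was called lower in C1 (-4.79, limma adjusted p = 0.00226) and Btc was at -0.77. Without A replicate 2, Btc was called higher (1.81, limma adjusted p = 0.00293) and Nrg1 lower (-1.79, limma adjusted p = 0.0103). The median of the members was -1.13, against -0.04 over all tested genes. Of 10 fibroblast markers 7 were called lower in C1, and of 10 epicardial and mesothelial markers 6 were called higher and 1 lower. Of 8 endothelial markers tested 4 were called lower, Pecam1 (-4.66), Cdh5 (-5.18), Tek (-5.69) and Tie1 (-4.03), with sums of 9.03 and 13.45 normalized reads in C1 against 125.4 and 213.1 in A. Of 6 Schwann cell and neural crest markers tested, S100b (-3.30), Cdh19 (-3.79) and Ngfr (-3.73) were called lower alongside Erbb3 and Mbp (3.08) higher, with sums of 8 and 10.2 in C1 against 59.1 and 56.3 in A. Of the 10 leukocyte and macrophage markers only Ptprc was called, lower in C1 (-4.55). The part of these markers was not tested.

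**Figure D3:**
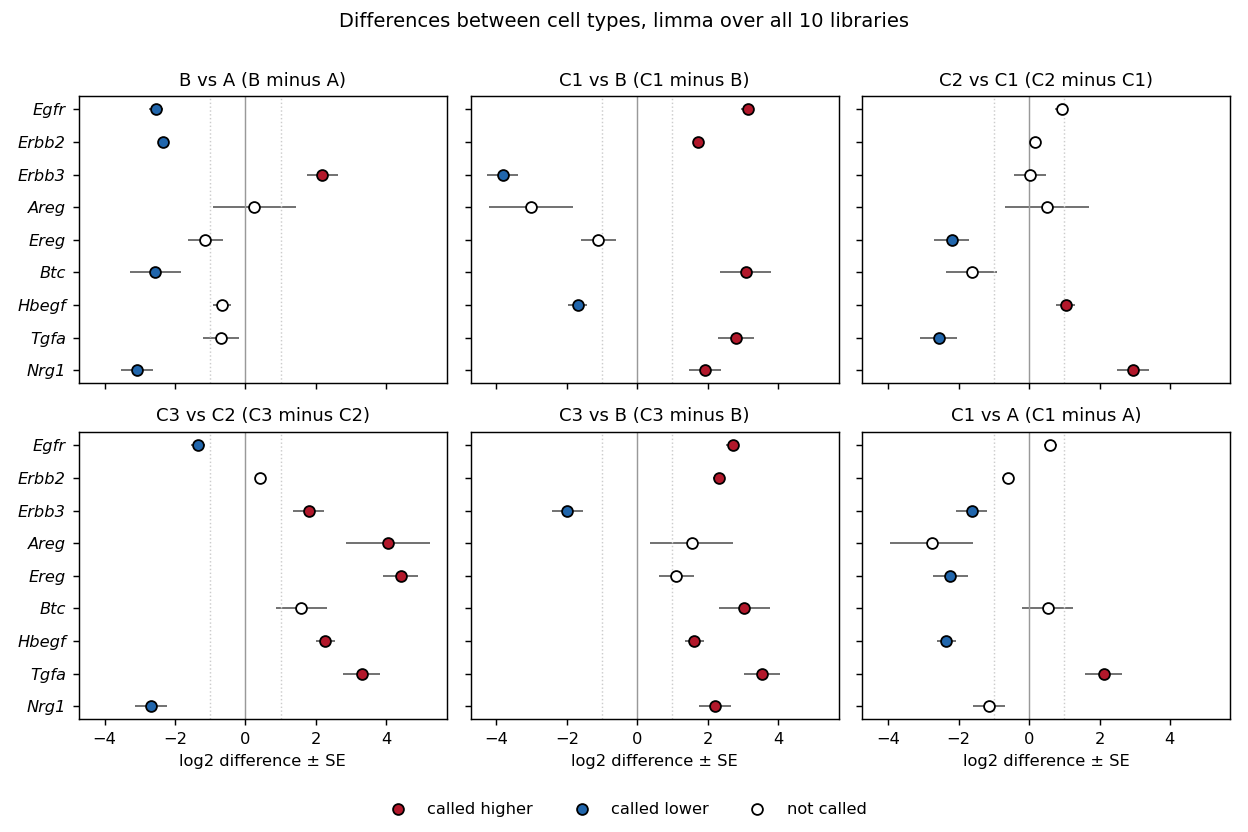
Log2 difference ± SE (x axis) of the 9 members (y axis) in 6 comparisons, from limma over all 10 libraries with 2 libraries a cell type; red points were called higher, blue points lower, and white points not called, and dotted lines mark a log2 difference of 1. Erbb3 lies opposite to Egfr and Erbb2 in B vs A, C1 vs B and C3 vs B, and Nrg1 lies opposite to Ereg and Tgfa in C2 vs C1 and C3 vs C2.

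Of the 6 other genes of the family, Erbb4 and Nrg3, a receptor for neuregulins and a neuregulin, were listed at 0 in every library. Epgn and Nrg2 were below the filter, and the highest value of either was 3.83 normalized reads. Egf itself had 15.5 and 6.67 normalized reads in B cells, 15.1 and 11.4 in C1, 41.3 and 37.2 in C2, 37.4 and 44.7 in C3, and 10.1 and 28.7 in A. C2 and C3 were the high kinds, and Egf was called higher in C3 than in B (2.01 ± 0.55, limma adjusted p = 0.017). Nrg4 was called lower in C3 than in B (-2.22 ± 0.65, limma adjusted p = 0.0226). In the other 5 comparisons neither was called.

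The counts of the other pathway lists are read against the share of all tested genes called in the same comparison. Of 7 genes of ligand shedding, 1 was called higher and 2 lower in C1 vs B (33.7% of all tested genes called either way), and 1 each way in C2 vs C1 (20.4%) and in C3 vs C2 (27.9%). In C3 vs B (41.4%) and in C1 vs A (26.6%) 3 were called lower, and in B vs A (26.9%) 2 were called each way. Adam12, a metalloprotease that can release Hbegf, was higher in C2 than in C1 (2.97 ± 0.37, limma adjusted p = 0.00149) and lower in C3 than in C2 (-2.35 ± 0.37, limma adjusted p = 0.0025). It was also the most changed in C1 vs A (-3.40 ± 0.37) and in B vs A (-2.51 ± 0.37). Adam15 was the most changed in C1 vs B (-2.60 ± 0.16) and in C3 vs B (-2.87 ± 0.16).

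Of 12 receptor inhibitors and turnover genes, 2 were called higher and 4 lower in C1 vs B, 3 higher in C2 vs C1, 1 lower in C3 vs C2, 4 higher and 2 lower in C3 vs B, 3 higher and 4 lower in B vs A, and 2 lower in C1 vs A. Lrig1, an inhibitor that promotes receptor degradation, was the most changed in B vs A (-2.49 ± 0.19, limma adjusted p = 0.000182) and in C3 vs B (2.72 ± 0.19, limma adjusted p = 4.69e-05). Errfi1, a feedback inhibitor of EGFR, was lower in C1 than in A (-2.72 ± 0.16, limma adjusted p = 8.49e-05). The most changed in the other comparisons were Sh3kbp1, an adaptor of receptor endocytosis, in C1 vs B (-2.86 ± 0.48), Lrig3 in C2 vs C1 (1.35 ± 0.41) and Cblb, a ubiquitin ligase, in C3 vs C2 (-1.76 ± 0.17).

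Of 17 adaptors and steps of the RAS-MAPK cascade 16 were tested. Of these, 2 were called higher and 4 lower in C1 vs B, 2 higher in C2 vs C1, 1 lower in C3 vs C2, 3 lower in C3 vs B, 2 higher and 1 lower in B vs A, and 2 lower in C1 vs A. The adaptor Grb2 was the most changed in B vs A (2.12 ± 0.12) and in C3 vs B (-2.53 ± 0.12). The GTPase gene Nras was the most changed in C1 vs B (-2.33 ± 0.13), in C2 vs C1 (1.21 ± 0.13) and in C1 vs A (-1.34 ± 0.13), and the adaptor Shc1 in C3 vs C2 (-1.005 ± 0.16).

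The 20 genes of MAPK feedback and output are induced by the cascade, and many of them restrain it. In C1 vs A and in C2 vs C1 their calls ran mostly in 1 direction. In C1 vs B and in B vs A all calls were lower, with counts near the share of all tested genes called (33.7% and 26.9%). That share was 26.6% in C1 vs A, 20.4% in C2 vs C1, 27.9% in C3 vs C2 and 41.4% in C3 vs B. In C1 vs A 15 were called lower and 1 higher, with a median of -1.88. The 15 included Spry1, Spry2, Spry4, Dusp4, Dusp5 and Dusp6, which encode inhibitors of the cascade, and Etv4 (-4.04 ± 0.28, limma adjusted p = 0.000154) was the most changed. The gene called higher was Epha4. With only the 4 libraries of C1 and A in the fit, 9 were called, all lower. In C2 vs C1 11 were called higher and 2 lower, with a median of 1.11, and Fosl1 was the most changed (3.05 ± 0.51, limma adjusted p = 0.00471). Without C2 replicate 1 the count was 6 higher and 1 lower. In C1 vs B 7 were called lower, with Etv5 at -2.85 ± 0.24, and under quantile normalization 3 were. Without B replicate 1, or without C1 replicate 2, 4 were called lower. In C3 vs C2 4 were called each way, with Etv1 the most changed (-3.12 ± 0.38), and without C2 replicate 2 3 were called higher and 2 lower. In C3 vs B 5 were called higher and 4 lower, among them Etv1, which reached only the floor in C3 and averaged 241 normalized reads in B. In B vs A 6 were called lower, with Etv4 the most changed (-3.74 ± 0.28), and 3 with only these 4 libraries in the fit. The medians over all tested genes were between -0.07 and 0.01 in these comparisons. C2 vs C1, C1 vs B and C1 vs A share the C1 libraries, so their counts are not independent of each other.

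**Figure D4:**
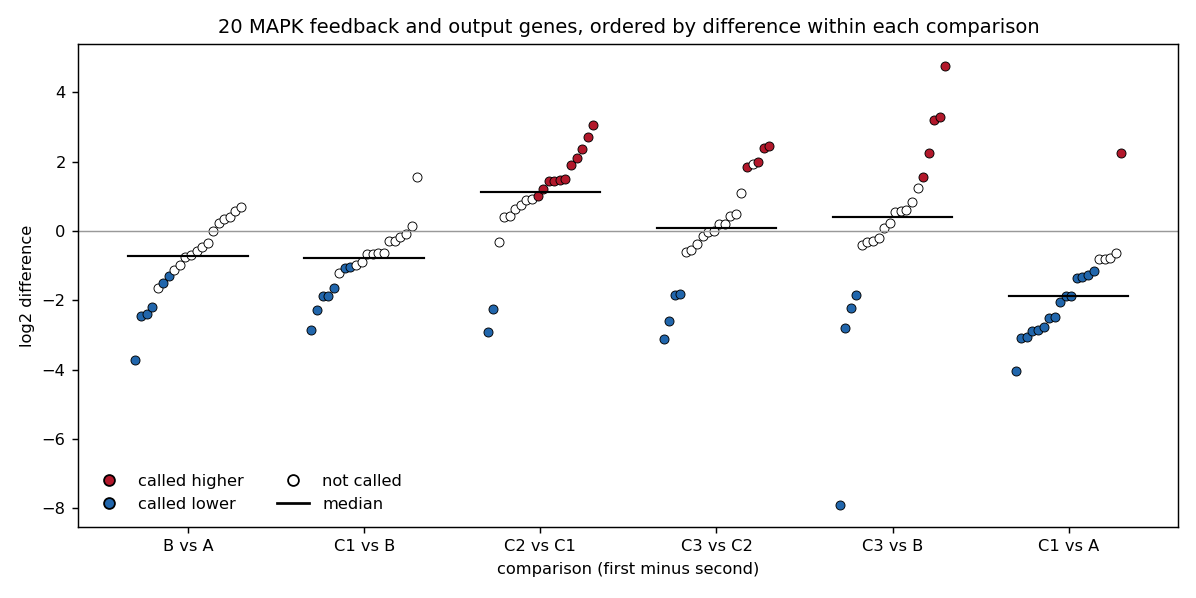
Log2 difference (y axis) of each of the 20 MAPK feedback and output genes in 6 comparisons (x axis), ordered by size within each; red points were called higher in limma, blue points lower, white points not called, and bars are medians. The medians are 1.11 in C2 vs C1 and -1.88 in C1 vs A.

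For 8 of the 9 members the genes with the most similar profile are given, found by the root mean square difference of mean-centred log2 values over the 10 libraries. As a description over libraries that share cell type and depth, the nearest to Egfr was Ephb3, at 0.21 with r = 0.99, and the next was H2afy2, at 0.31. Those of Erbb2 were Jrk and Asap2 (0.23 each), and those of Hbegf were Rcc1 (0.30) and Ctgf (0.31). Those of Tgfa were Usp29 (0.41) and Peg3 (0.50), those of Nrg1 were Adamts9 (0.44) and Sesn3 (0.66), and those of Erbb3 were Akirin1 (0.44) and Gm5431 (0.46). Areg (Prl2c1 at 0.63, Upp1 at 0.75) and Ereg (Grk5 at 0.65, Sgms2 at 0.67) had their nearest genes farther away. The distance is not scaled by spread, and Areg and Ereg had the largest standard deviations of the 9 (2.06 and 1.80). Their r with the nearest gene was 0.97 and 0.95, against 0.97 for Hbegf and 0.96 for Erbb3. Prl2c1 belongs to the prolactin family, whose similar copies may share reads. Among the members themselves, r over the 10 libraries was 0.88 between Egfr and Nrg1 and between Areg and Hbegf, and -0.89 between Egfr and Erbb3.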

How the data were processed

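The 10 libraries were made with a TruSeq RNA v2 kit, which does not mark strand, per the labels' protocols. The submitters' processing notes name TopHat, DESeq and the mm10 build, without version or role. The authors deposited 1 table of log2 values, whose making was read from the values themselves. Of its genes 18334 are 0 in every library, 17 held a cell turned into a date and were left out, and the other 17821 have a median of 0 within 1e-05. Where at least 2 libraries share a gene's lowest value, it was taken as the floor of 1 normalized read, which held for 4763 genes. The worth of 1 read came from how low values are spaced, and 72.7% to 86.8% of them lay on steps of whole reads or fixed fractions. Levels of Tgfa, Nrg1 and Egf came from those steps, where at least 8 libraries fell on them and 3 ways of choosing the offset gave the same one. Total depth is unknown, and no test on counts was run.

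Genes of known floor were kept where 2 libraries reached 10 normalized reads, which removed 3568 and left 14253. The test was limma 3.58.1 under R 4.3.3, with 1 mean for each cell type over the 10 libraries and 5 residual degrees of freedom. P-values were two-sided and Benjamini-Hochberg adjusted separately for the 6 comparisons. A call needed an adjusted p below 0.05 together with a log2 difference of 1 or more in size. Both procedures were tested on simulated data. Without strand, reads of overlapping genes cannot be told apart. The members and lists were chosen with earlier results of these data known. Every member is named, and from each pathway list the counts and the most changed called gene of each comparison. The genes nearest in profile to Btc are not reported here. The alternatives were other scalings and filters, a robust variance, a replicate block, a fit of the compared libraries alone and leaving out each library, and those for the MAPK list were added after seeing the data. Same-numbered libraries of different kinds did not deviate together (correlations of -0.06 to 0.09), so the numbers were not taken as pairs.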

Additional observations from a re-analysis of the deposited data

How the results depend on the processing

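The 54 member differences were recomputed under 17 alternatives, which gave 906 values, and 838 kept their direction and their side of the threshold. Another 44 lost a call, 20 gained a call and 4 turned their sign. None of the 4 had been called. Areg in B vs A was -1.76 without A replicate 1 and 2.28 without A replicate 2, and Btc in C1 vs A was -0.77 and 1.81 in the same order. Under quantile normalization Erbb3 and Areg in C2 vs C1 were -0.52 and -0.0431. Library medians, no filter and a robust variance left every member call in place, as did the replicate block, under which 4 members were called in C2 vs C1 as without it. A filter at 50 normalized reads removed Erbb3 and Areg and gave no value for them. With only the 4 compared libraries in the fit, 2538 genes were called in B vs A in place of 3835, and 2375 in C1 vs A in place of 3798, where 2 members were called in place of 4. That fit has fewer residual degrees of freedom. Leaving out 1 library at a time gave 3 to 6 called members in B vs A, 5 to 8 in C1 vs B, 2 to 5 in C2 vs C1, 5 to 8 in C3 vs C2, 7 to 8 in C3 vs B and 1 to 6 in C1 vs A. The lone library of a kind is then assumed to vary like the others. Quantile normalization, which makes the distributions equal, moved the genes called higher and lower to 1484 and 1714 in place of 2066 and 1769 in B vs A, to 2290 and 2240 in place of 1799 and 3005 in C1 vs B, to 1948 and 2014 in place of 1740 and 1166 in C2 vs C1, to 2507 and 2303 in place of 2380 and 3515 in C3 vs B, and to 2217 and 2105 in place of 1433 and 2365 in C1 vs A. Depth limits Erbb3 and Areg, which rest on under 10 reads in most libraries.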
